A study of Mus musculus with 6 samples.

Results

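The clustered histone genes encode the linker histone H1 and the core histones H2A, H2B, H3 and H4, and lie in the Hist1 to Hist4 clusters of the mouse genome. The members were the probes whose gene name on the array of control 3 carried a cluster name of these genes (Hist1h, Hist2h, Hist3h or Hist4h, or a newer form). They numbered 43 probes of 35 genes, of 41174 non-control probes and 28104 genes on the array. The signal stood well above background on at least 3 of the 6 arrays, in the sample channel, for 42 of the 43 probes, which left 34 genes among 20622 tested. Hist1h2be, an H2B gene, reached that level on 1 array and was not tested, and Hist1h2ac passed through the mutant arrays alone.

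RNA from sheets of forestomach epithelium, the stratified squamous lining of the upper mouse stomach, had been measured in 3 control and 3 mutant samples labelled as biological replicates. All mice were 12 weeks old, of mixed 129/Sv and C57/BL6 background, and had received 2 doses of tamoxifen at 7 weeks. Controls carried K5-CreER, a tamoxifen-activated Cre recombinase under the keratin 5 promoter, which is active in basal cells of squamous epithelia. Mutants carried K5-CreER and, on both Rosa26 alleles, a Sox2 transgene. Both groups thus carried the Cre and had been given the agent, and the recombinase is made only where the keratin 5 promoter is on. Each array compared a sample, in Cy5, with Agilent's Universal Mouse Reference RNA from 11 cell lines, in Cy3. All levels below are log2 ratios of sample over reference, normalized within each array. A level of 0 is thus the ratio of the typical gene of like intensity, and need not mean equal signals in both channels.

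Most clustered histone genes are transcribed in S phase, when new DNA is packed into nucleosomes, and are shut off outside it. Their messages end in a conserved stem-loop in place of a poly(A) tail, and the stem-loop binding protein SLBP carries them through processing, translation and decay. A few members also give polyadenylated messages, and the kit named in the labels copies RNA from an oligo(dT) primer, so the 2 kinds of message need not be labelled equally. In squamous epithelium, S phase is confined to the basal and nearest suprabasal cells, while the cells above them differentiate and leave the cycle.

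Because histone genes are near copies of each other, the probe sequences set what each value can tell. Of 903 pairs of member probes, 10 shared at least 45 identical bases in register, and these pairs involved 13 probes. The 3 H2B probes with the closest sequences are shown, with capitals at the bases that differ from the Hist1h2bk probe. The Hist1h2bm probe shared 58 of 60 bases with it and the Hist3h2bb-ps probe 55 of 58.
Hist1h2bk: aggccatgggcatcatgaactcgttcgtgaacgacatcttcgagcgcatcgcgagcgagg
Hist1h2bm: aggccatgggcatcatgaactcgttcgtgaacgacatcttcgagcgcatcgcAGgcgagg
Hist3h2bb-ps: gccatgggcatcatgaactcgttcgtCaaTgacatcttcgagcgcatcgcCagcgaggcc
Per the file headers these lie at chr13:22127928-22127987 and chr13:21814139-21814198 on the plus strand and at chr11:58767697-58767756 on the minus strand, in mm9, all in coding sequence.

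In the H4 class, 3 probes from different loci overlapped, and capitals mark the 39 bases that all 3 cover. The Hist1h4d and Hist1h4f probes were identical over the 50 bases they share, and the Hist2h4 probe matched Hist1h4f at 45 of 49 bases.
Hist1h4d: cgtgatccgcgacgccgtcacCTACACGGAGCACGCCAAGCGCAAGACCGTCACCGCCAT
Hist1h4f: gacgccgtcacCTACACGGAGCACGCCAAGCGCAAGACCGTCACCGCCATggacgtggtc
Hist2h4: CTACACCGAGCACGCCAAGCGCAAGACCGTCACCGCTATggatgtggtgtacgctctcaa
Their positions in mm9 were chr13:23673665-23673724 on the plus strand, chr13:23643249-23643308 on the minus strand and chr3:96066953-96067012 on the minus strand, again in coding sequence. Signals of such paralogs cannot be told apart, so like values within these sets are not separate evidence from separate genes.

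The processing signal itself was present whole in 1 member probe. The Hist1h3a probe, at chr13:23853756-23853815 on the minus strand in mm9, holds the histone 3′ stem-loop, in which the paired bases stand at both ends.
Hist1h3a stem-loop: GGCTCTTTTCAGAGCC
The Hist1h2ab probe ends in the first 11 bases of the same element and the Hist1h2ae probe begins with its last 12. Of the 34 probes that stood for a gene, 22 lay in coding sequence, 2 spanned the stop codon and 10 lay 3′ of it. By transcript position, the probes of Hist1h1c, Hist1h2ac and Hist3h2ba began past the end of the current RefSeq gene, as did a second Hist1h1d probe. Which kind of message these probes read was not tested.

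Promoters of 29 of the 35 genes were found in RefSeq (GRCm38.p6), and the 250 bases before each start were searched on both strands for 4 motifs, none of which contains another. CCAAT was present before 89.7% of the member genes and 37.5% of 27025 genes with a promoter, and TATAAA before 55.2% and 14.3%. The octamer ATTTGCAT, known from H2B promoters, was present before 34.5% of members and 1.81% of all genes: it was found in 4 of 6 H2B and 6 of 11 H2A promoters and in none of the 6 H1 promoters. The sequence AAACACA, known from H1 promoters, was present before 5 of 6 H1 genes, 31.0% of members and 7.20% of all genes. A pair of promoters is printed, with these motifs in capitals, one from the H1 gene and one from an H2B gene that the results below contrast. Hist1h1b (now H1f5) is shown from chr13:21780626-21780875 on the minus strand and Hist1h2bm (now H2bc14) from chr13:21721794-21722043 on the plus strand, both in GRCm38.p6.
Hist1h1b: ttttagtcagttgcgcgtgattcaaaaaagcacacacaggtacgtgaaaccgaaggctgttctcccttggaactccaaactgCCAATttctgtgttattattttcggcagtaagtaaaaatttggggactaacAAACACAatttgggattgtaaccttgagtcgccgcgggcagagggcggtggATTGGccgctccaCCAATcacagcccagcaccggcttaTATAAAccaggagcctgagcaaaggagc
Hist1h2bm: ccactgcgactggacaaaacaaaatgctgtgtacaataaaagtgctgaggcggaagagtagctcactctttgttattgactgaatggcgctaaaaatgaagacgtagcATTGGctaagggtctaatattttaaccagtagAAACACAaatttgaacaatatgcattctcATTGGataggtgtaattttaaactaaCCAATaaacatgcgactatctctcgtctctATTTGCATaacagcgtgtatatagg
The promoters of Hist1h2al, Hist1h2bc, Hist2h2be, Hist3h2bb-ps, Hist1h3a and Hist2h4 were not analysed here.

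Several arrays stood apart before any histone value was read. The share of probes well above background was 62.6% on control 3 and 73.1% to 76.2% on the others, and control 3 was scanned on another day, from another slide, with another software version. Over all genes, controls 1 and 2 differed from each other with a scaled median absolute difference of 0.156 and mutants 2 and 3 with 0.104, against 0.326 to 0.729 for every other pair of arrays. The labels do not say whether these close pairs share animals or RNA, so the spread within groups may be in part technical. The mutants shared 1 slide, which held no control, so effects of slide and of genotype cannot be told apart. The only Sox2 probe read 6.26, 6.09 and 6.38 in controls and 5.67, 5.83 and 5.95 in mutants, a difference of -0.43 with a limma adjusted p of 0.143. No label states that the transgene holds this probe's sequence, so the groups below rest on the labels alone.

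In the comparison of mutants with controls, the question was how forestomach epithelium differs when Sox2 is expressed from Rosa26 in keratin 5 cells. Most H1, Hist1 H2A and H4 genes had higher means in the mutants, and 7 of 8 H2B genes had lower means. Hist1h1b, measured on all arrays, passed the threshold of limma's adjusted p under 0.05 and was higher in mutants. Hist1h2ac passed it too, but had entered the test through the mutant arrays alone, so its call has to be read as a bound. Both together are 5.88% of the 34 members tested, where 2.82% of all tested genes passed and 1.41% passed upward. Among genes well above background on all 6 arrays, 1 of 31 members passed, against 3.00% of all such genes. With each probe tested on its own, 2 of 42 passed, against 2.72% of all probes. With slide as a random block, where no slide held both groups, neither gene passed (adjusted p = 0.623 for Hist1h1b and 0.447 for Hist1h2ac). No gene of the lists compared below passed in that fit either, so the loss was not particular to these genes. At an unadjusted limma p under 0.05 there were 15 higher members, Hist1h2ac among them, and 7 lower, 64.7% against 23.9% of all genes. The groups did not overlap for 25 members, 18 with mutants above, Hist1h2ac among them, and 7 below, where 37.9% of all genes did not overlap. In both counts the near-copy H2B and H4 probes printed above enter as separate genes, though they are not separate evidence. The median difference was 0.35 over the members and 0.01 over all tested genes, with 23 members above 0 and 11 below, while 50.6% of all genes were above 0.

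**Figure D1:**
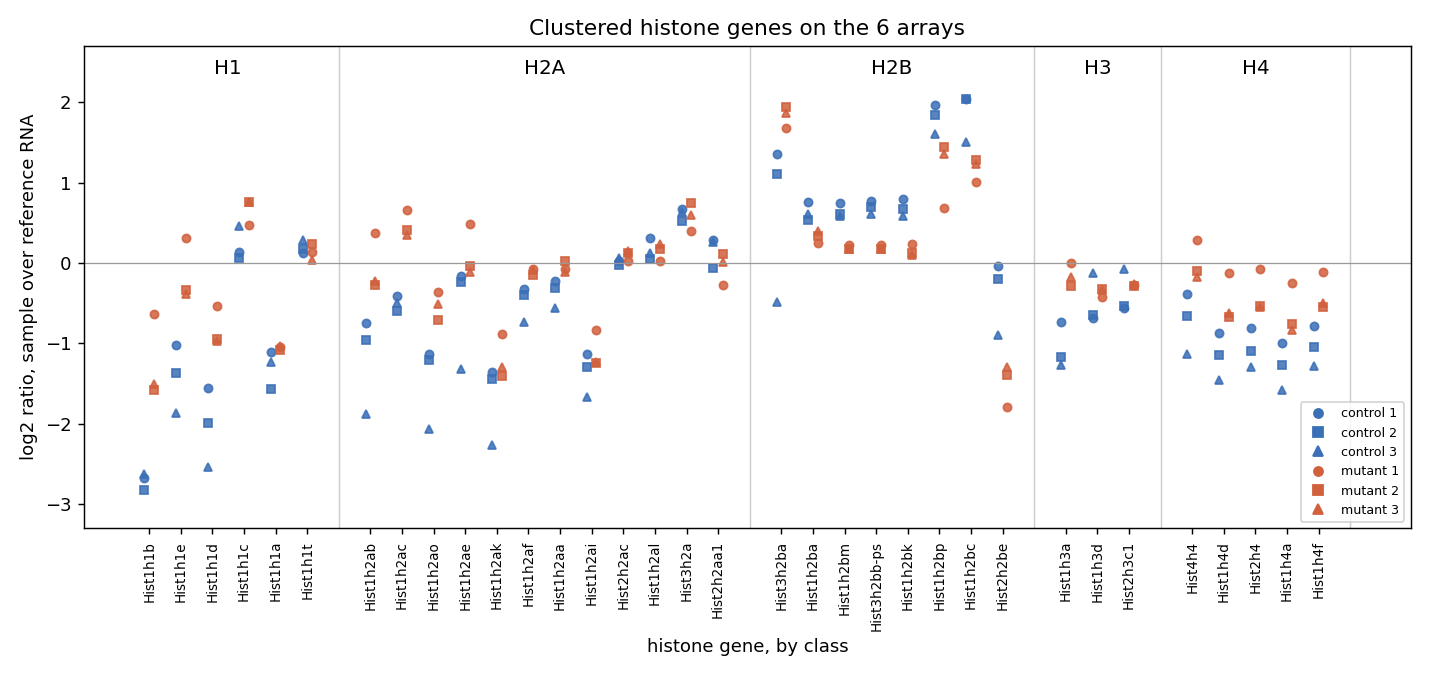
Log2 ratio of sample over reference RNA (y axis) of the 34 tested histone genes (x axis, grouped by class) on each array; blue symbols are controls and orange symbols mutants, with 1 symbol shape for each replicate number. Orange symbols lie above blue ones for all 5 H4 genes and below them for 7 of 8 H2B genes, and the controls of Hist1h2ac were not well above background.

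The linker histones bind the DNA that enters and leaves the nucleosome. Hist1h1b, which encodes H1.5, had ratios of -2.67, -2.82 and -2.63 in controls 1 to 3 and of -0.64, -1.58 and -1.51 in mutants 1 to 3. Every mutant lay above every control, and mutant 1 lay highest. The difference was 1.46 with a standard error of 0.26, a 2.76-fold rise (limma adjusted p = 0.0472, probe at chr13:21871923-21871982 on the minus strand in mm9, coding sequence). The call was lost when any of 5 arrays was left out: the adjusted p was 0.154, 0.172 and 0.0526 without controls 1, 2 and 3 and 0.129 and 0.142 without mutants 2 and 3. Without mutant 1 the gene still passed.

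Hist1h1e (H1.4) and Hist1h1d (H1.3) showed the same order of groups without passing. Ratios of Hist1h1e were -1.02, -1.37 and -1.87 in controls and 0.31, -0.34 and -0.38 in mutants, a difference of 1.29 ± 0.28 (SE, limma adjusted p = 0.0732). Ratios of Hist1h1d at its coding probe were -1.55, -1.99 and -2.54 in controls and -0.53, -0.95 and -0.97 in mutants, a difference of 1.21 ± 0.27 (SE, adjusted p = 0.0768). Control 3 was the lowest control for both and mutant 1 the highest mutant. A second Hist1h1d probe, 3′ of the coding sequence, had a difference of only 0.12 and overlapping groups. Hist1h1c (H1.2), read by a 3′ probe, had a difference of 0.45 ± 0.16 (SE, adjusted p = 0.168), with means of 0.22 ± 0.21 in controls and 0.66 ± 0.17 in mutants (SD, n = 3 each). Hist1h1a (H1.1) differed by 0.25 ± 0.15 (SE, adjusted p = 0.354), with all mutants above all controls. The testis histone gene Hist1h1t, which serves spermatocytes, differed by -0.06 ± 0.12 (SE, adjusted p = 0.776). Its sample signals were low, 113 to 152, though well above background on all 6 arrays, so a small difference could be missed. In all, 5 of 6 H1 genes had higher means in mutants and 1 passed, with a median difference of 0.83.

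H2A forms dimers with H2B and lines the outer faces of the nucleosome. Hist1h2ac had sample signals, before background correction, of 89, 85 and 47 in controls and 190, 166 and 162 in mutants. Its probe lies 3′ of the coding sequence at chr13:23773575-23773634 on the minus strand in mm9, past the end of the current RefSeq gene. On no control array, but on all 3 mutant arrays, was the signal well above background, so only a bound can be given. In the sample channel, with the controls set at the lowest detected signal or their own, the mutants were at least 1.7-fold higher, from group means of 6.36 and 7.38 on the log2 scale. The limma adjusted p was 0.0249, and it was 0.104, 0.127, 0.130 and 0.115 without control 1, control 2, mutant 2 and mutant 3.

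The other H2A genes are given by the cluster in their name, and the difference between clusters was not tested. In Hist1, Hist1h2ac included, 8 of 9 H2A genes had higher means in mutants, with a median of 0.49, also with Hist1h2ac at its bound, and mutants above all controls for 6, where 19.7% of all genes had them above. In Hist2 and Hist3 the 3 genes differed by -0.21 to 0.08, with overlapping groups for each and a median of -0.03. The Hist2h2aa1 probe shares 48 of 58 bases with that of Hist1h2ai and 47 of 58 with that of Hist1h2ak. The probes of Hist1h2ai and Hist1h2ak share 55 of 60, so the values of these genes need not be separate evidence. Hist1h2ab, whose probe runs into the stem-loop, had ratios of -0.75, -0.96 and -1.88 in controls and 0.37, -0.28 and -0.22 in mutants. Its difference of 1.15 ± 0.34 (SE, adjusted p = 0.122) came with a reference-channel difference of 0.51, although the same reference RNA was on every array. Hist1h2ao differed by 0.95 ± 0.27 (SE, adjusted p = 0.119), with control 3 at -2.07 and the other controls at -1.13 and -1.21. Hist1h2af differed by 0.38 ± 0.14 (SE, adjusted p = 0.181) at the probe that stands for it and by 1.42 (adjusted p = 0.125 over probes) at a dimmer probe near the start of the coding sequence. Hist1h2ae, Hist1h2ak, Hist1h2ai and Hist1h2al differed by 0.69, 0.49, 0.26 and -0.01, and the last is listed as a pseudogene under its current RefSeq name. The probe of Hist1h2al lies at chr13:51295494-51295553 in mm9, far from the other Hist1 H2A probes, so only its name places it in Hist1. Its sample signals were 79 to 135, well above background on 4 of 6 arrays.

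The testis H2A gene Hist1h2aa is a case where the probe sequence bears on the name. Its sample signals were 125904 to 354403 on controls and 349815 to 390798 on mutants. The probe shares 47 of 60 bases with that of Hist1h2af, which gave 128743 to 361242 and 383491 to 429169. Whether the signal comes from Hist1h2aa itself was not tested. The difference was 0.31 ± 0.13 (SE, adjusted p = 0.215). It came with a sample-channel difference of only 0.05 and a reference-channel difference of -0.26, although the same reference RNA was on every array.

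H2B was the class with the opposite direction, though the difference between classes was not tested. Its 7 genes with lower means had every mutant below every control, where 18.2% of all genes did, and none of the 7 passed the adjusted threshold. At an unadjusted p under 0.05 all 7 were lower, against 11.7% of all genes. Hist1h2bk had ratios of 0.79, 0.67 and 0.58 in controls and 0.23, 0.12 and 0.10 in mutants, a difference of -0.53 ± 0.12 (SE, limma adjusted p = 0.0713). Hist1h2bm and Hist3h2bb-ps, which share its probe sequence as printed above, differed by -0.45 ± 0.11 (SE, adjusted p = 0.0882) and -0.51 ± 0.11 (SE, adjusted p = 0.0667). The mutants of these 3 genes lay within 0.10 to 0.23 and the controls within 0.58 to 0.79. A second, less similar Hist1h2bk probe differed by -0.23, with its groups apart as well.

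Among the H2B genes read by 3′ probes, 3 had lower means in mutants. Hist2h2be, known in mouse olfactory neurons as an H2B gene expressed by non-dividing cells, had ratios of -0.04, -0.20 and -0.90 in controls and -1.79, -1.39 and -1.29 in mutants. This was the lowest difference of all members, -1.11 ± 0.26 (SE, limma adjusted p = 0.0848). Hist1h2bc had ratios of 2.04, 2.04 and 1.51 in controls and 1.01, 1.28 and 1.23 in mutants, a difference of -0.69 ± 0.19 (SE, adjusted p = 0.105). All 6 ratios of Hist1h2bc were thus positive, with the lower ones in the mutants. Hist1h2bp differed by -0.65 ± 0.23 (SE, adjusted p = 0.169). The testis gene Hist1h2ba differed by -0.31 ± 0.12 (SE, adjusted p = 0.183).

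Leaving out control 3 changed the calls of the H2B class. Without it, or with scan day as a block, which comes to the same, Hist2h2be (-1.37, adjusted p = 0.0227), Hist1h2bc (-0.87, 0.0242), Hist3h2bb-ps (-0.55, 0.0324), Hist1h2bk (-0.58, 0.0366) and Hist1h2bm (-0.49, 0.0458) passed in limma, where 7.29% of all genes did. The only H2B gene with a higher mean in mutants, Hist3h2ba, was named after its values were seen. Its ratios were 1.36, 1.11 and -0.49 in controls and 1.68, 1.94 and 1.87 in mutants, with control 3 far below the other arrays and a difference of 1.17 ± 0.48 (SE, adjusted p = 0.203).

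**Figure D2:**
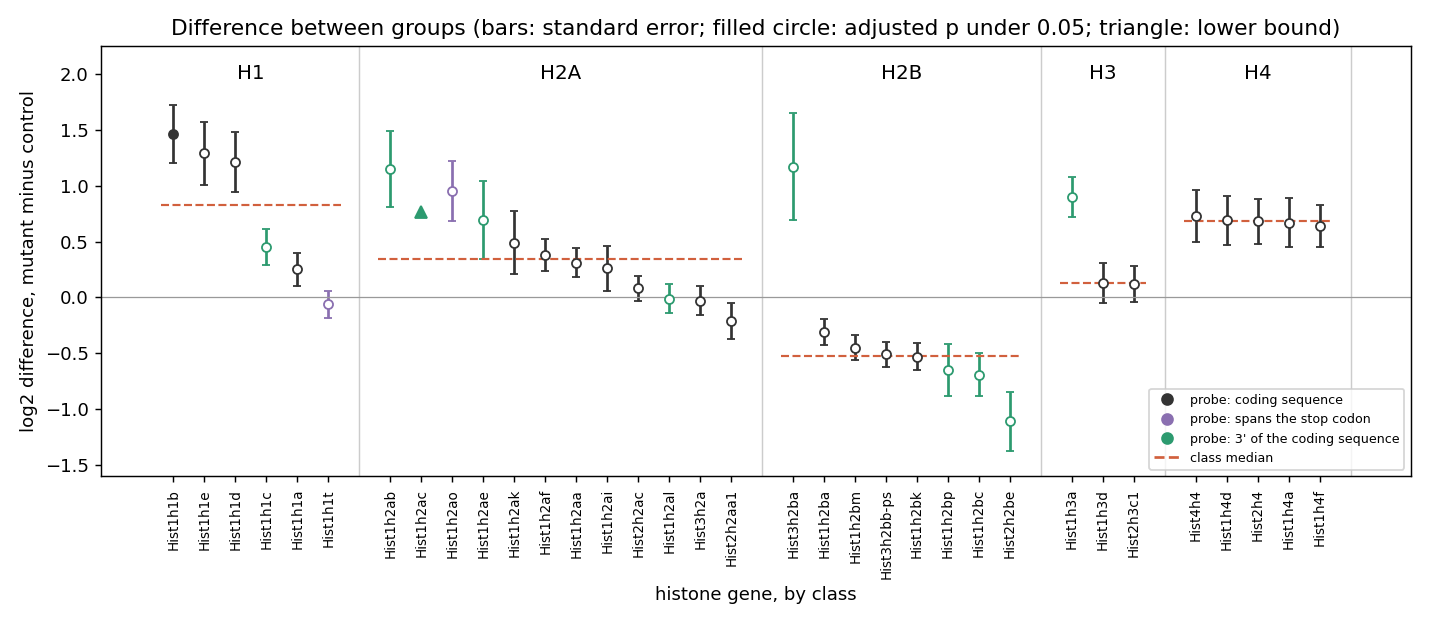
Log2 difference of mutant minus control means (y axis) for each tested histone gene (x axis, by class); bars are limma standard errors, filled symbols passed an adjusted p of 0.05, colours give the probe's place, the triangle is the lower bound of Hist1h2ac, whose controls were not well above background, and dashed lines are class medians. The medians are 0.83 for H1, 0.35 for H2A, -0.52 for H2B, 0.13 for H3 and 0.68 for H4.

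Probes in coding sequence and 3′ of it gave H2B medians of the same sign. The 4 H2B genes read in coding sequence had a median of -0.48 and the 4 read 3′ of it a median of -0.67, while the 5 H4 genes, all read in coding sequence, had 0.68. H2A and H2B genes lie back to back and share the stretch between them, and 4 such pairs had a probe named for each gene. The Hist3h2bb-ps probe matches that of Hist1h2bk at 55 of 58 bases. The Hist1h2aa probe shares 47 of 60 bases with that of Hist1h2af. Whether these signals come from the named locus was not tested. Of Hist1h2ac and Hist1h2bc, 239 bases apart in RefSeq, the first was at least 1.7-fold higher in mutants and the second differed by -0.69. Hist1h2aa and Hist1h2ba, 280 bases apart, differed by 0.31 and -0.31, Hist2h2ac and Hist2h2be, 191 bases apart, by 0.08 and -1.11, and Hist3h2a and Hist3h2bb-ps, 172 bases apart, by -0.03 and -0.51. The H2B partner had the lower difference in each of the 4 pairs. For Hist1h2aa the sample channel differed by 0.05 and the reference channel by -0.26, so its ratio difference lay mostly in the reference channel. For Hist1h2ba these values were -0.66 and -0.35.

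**Figure D3:**
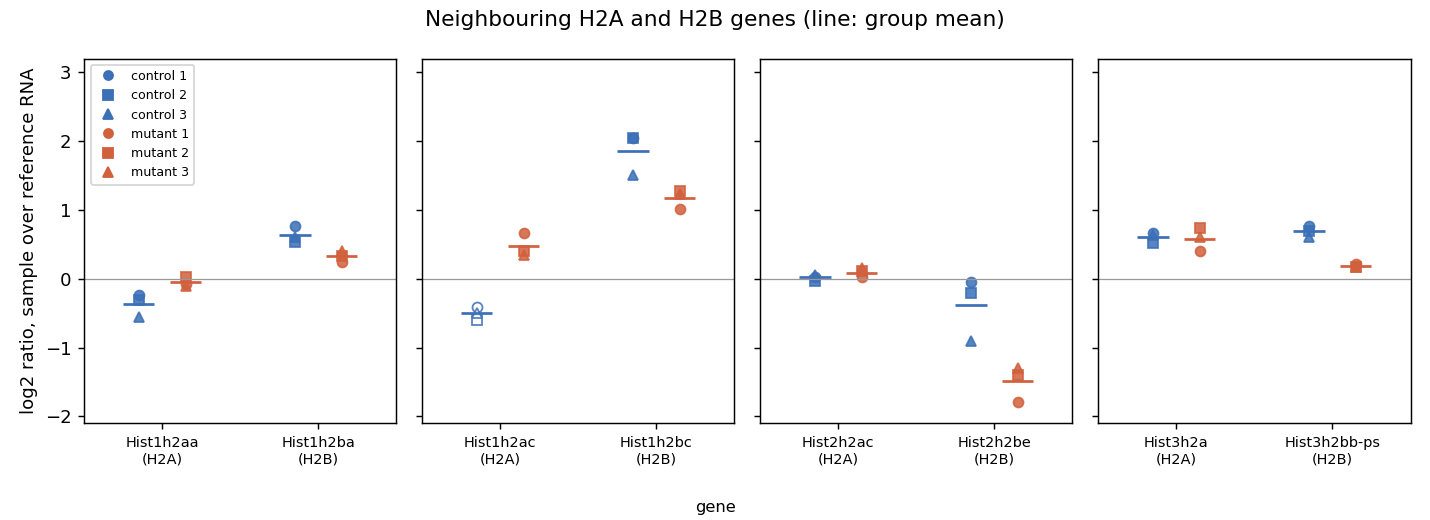
Log2 ratio on each array (y axis) for the 4 neighbouring H2A and H2B pairs (x axis, 1 panel a pair), blue for controls and orange for mutants, with lines at group means. Mutants lie below controls for every H2B partner, while the H2A partner lies above in 2 pairs and overlaps in the others; the Hist1h2ac controls, drawn open, were not well above background.

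H3 and H4 form the tetramer at the core of the nucleosome. Hist1h3a, read by the probe with the stem-loop, had ratios of -0.74, -1.17 and -1.27 in controls and 0.00, -0.29 and -0.18 in mutants. The groups were apart, with a difference of 0.90 ± 0.18 (SE, limma adjusted p = 0.0559). Hist1h3d and Hist2h3c1, read in coding sequence, differed by 0.13 ± 0.18 (SE, adjusted p = 0.693) and 0.12 ± 0.16 (SE, adjusted p = 0.685). In both of these, control 3 was the highest array. Without it the differences were 0.31 (adjusted p = 0.0995) and 0.28 (adjusted p = 0.106).

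All 5 H4 genes had every mutant above every control, where 19.7% of all genes did, and differences of 0.64 to 0.73 with adjusted p of 0.12 to 0.149. Hist2h4 had ratios of -0.81, -1.10 and -1.29 in controls and -0.07, -0.53 and -0.55 in mutants (0.68 ± 0.20, SE, limma adjusted p = 0.12). Hist4h4, the single gene of the Hist4 cluster, had -0.38, -0.66 and -1.13 against 0.29, -0.10 and -0.17 (0.73 ± 0.23, SE, adjusted p = 0.139). Hist1h4f differed by 0.64 ± 0.19 (SE, adjusted p = 0.122) and Hist1h4d by 0.69 ± 0.22 (SE, adjusted p = 0.139). The probes of 3 of these genes overlap in sequence, as printed above. The reference channel also moved: its H4 median differed by 0.48 between groups, where that of all genes differed by -0.03. On the Hist1h4d probe the reference signal was 48812 and 43052 on controls 1 and 2, 12291 on control 3 and 52472 to 56544 on mutants. Without control 3 the H4 median difference was 0.53.

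**Figure D4:**
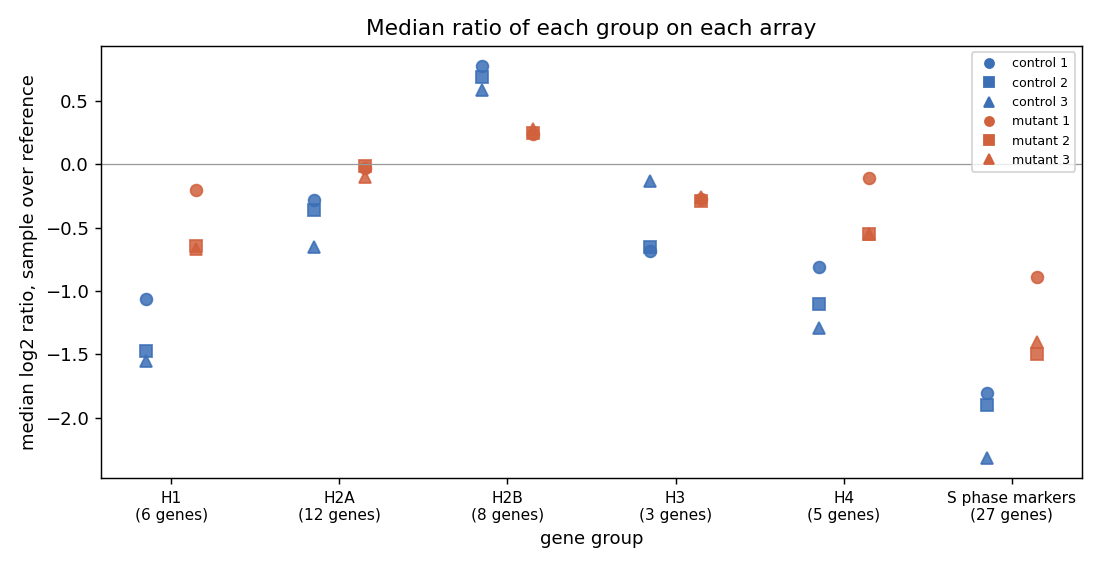
Median log2 ratio (y axis) of each histone class and of 27 S phase markers (x axis) on each array, blue for controls and orange for mutants. Mutants lie above controls for H1, H2A, H4 and the S phase markers and below them for H2B, and mutant 1 is the highest array for H1, H4 and the S phase markers.

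S phase markers, most of which serve DNA replication, ran the same way as H1 and H4. All 27 had higher means in mutants, with a median difference of 0.77, and 2 passed, 7.41% against 2.82% of all genes. Prim1, the small subunit of DNA primase, rose by 0.65 ± 0.11 (SE, limma adjusted p = 0.0451), and Fen1, the flap nuclease of Okazaki fragments, by 1.01 ± 0.18 (SE, adjusted p = 0.0476). None of the 27 passed when any array but control 3 was left out, nor with slide as a random block. Rrm1, a ribonucleotide reductase subunit, and Top2a, a topoisomerase of dividing cells, differed by 1.44 ± 0.29 (SE, adjusted p = 0.0590) and 1.49 ± 0.34 (SE, adjusted p = 0.0796). Other Top2a probes, tested on their own, differed by 1.22 (adjusted p = 0.0492) and 0.50 (adjusted p = 0.105). The highest difference of the list, 1.63, belonged to Mki67, a marker of dividing cells named after its values were seen. Array medians of the 27 markers were -1.80, -1.90 and -2.32 in controls and -0.89, -1.50 and -1.40 in mutants. The H4 medians in the same order were -0.81, -1.10 and -1.29, then -0.11, -0.55 and -0.55, and the H2B medians were 0.78, 0.69 and 0.59, then 0.24, 0.25 and 0.28.

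Genes that make and carry histones gave no call. Of 25 genes for histone transcription and message processing, 18 had higher means and 0 passed in limma, with 9 higher and 0 lower at an unadjusted p under 0.05, 36.0% against 23.9% of all genes. The smallest p belonged to Srrt, a cap-complex partner (0.48 ± 0.12, SE, adjusted p = 0.0978), Lsm11, of the U7 particle that cuts the histone 3′ end (0.56 ± 0.15, adjusted p = 0.104), Cdk2, the S phase kinase (0.55 ± 0.15, adjusted p = 0.106), and Snrpb (0.69 ± 0.19, adjusted p = 0.110), of the Sm ring. Of 24 histone chaperones, 16 had higher means and 0 passed, with 4 higher and 1 lower at an unadjusted p under 0.05, 20.8% against 23.9% of all genes. Hira, which deposits the variant H3.3, differed by 0.55 ± 0.12 (SE, adjusted p = 0.0667) at the probe that stands for it and by 0.02 and 0.17 at its other probes. Chaf1b, of the replication-coupled factor CAF-1, differed by 0.88 ± 0.20 (SE, adjusted p = 0.0772). The paralogs Asf1a and Asf1b, H3-H4 chaperones, differed by -0.55 ± 0.15 (SE, adjusted p = 0.109) and 1.05 ± 0.37 (SE, adjusted p = 0.163).

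Replacement histones have genes outside the clusters, which mostly give polyadenylated messages. Of 16 such genes, 11 had higher means and 0 passed in limma. At an unadjusted limma p under 0.05, 4 were higher and 1 lower, 31.2% against 23.9% of all genes. H2afz, which encodes H2A.Z, differed by 1.11 ± 0.24 (SE, adjusted p = 0.0663) and Cenpa, the centromeric H3, by 1.91 ± 0.49 (SE, adjusted p = 0.0978), with control 3 at -3.94 and the other controls at -2.13 and -2.23. The other probe of H2afz differed by -0.04 and that of Cenpa by 0.23. H2afx, of the DNA damage response, differed by 0.71 ± 0.19 (SE, adjusted p = 0.106), and H1f0, the linker histone of resting cells, by 0.50 ± 0.16 (SE, adjusted p = 0.139). With each probe tested on its own, 2 of 28 probes of this list passed in limma, a second H1f0 probe (0.67, adjusted p = 0.0479) and a second probe of H1fx, a linker histone variant named after its values were seen (0.78, adjusted p = 0.0414). The remaining H1f0 probe differed by 0.72 (adjusted p = 0.0680).

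Markers of other cells were read beside these values. Squamous markers, 14 of 14 detected, had summed sample signals of 3030936 to 5083599 in controls and 3051065 to 3181352 in mutants, and 12 of 14 had lower means in mutants, with 0 passing. Glandular stomach markers, 19 of 19 detected, summed to 85404 on control 3, 1797453 to 1965519 on the other controls and 516421 to 1646619 on mutants. The 14 fibroblast and smooth muscle markers, all detected, summed to 163719 on control 3, 846762 to 1012088 on the other controls and 437248 to 810636 on mutants. Lymphocyte markers summed to 12502 to 14680 in controls and 16013 to 19600 in mutants, with Cd28 and Cd79a of the 14 not well above background on any control. The part of these cells in the histone differences was not tested, and in whole sheets fewer cells of a type and less RNA per cell cannot be told apart.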

How the data were processed

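Per the file headers, the deposited intensity values are those of Agilent Feature Extraction 10.5.1.1 (control 3: 10.7.3.1). The submitters' processing notes name version 9.1. Mean signals were corrected for median local background with normexp (offset 50) and normalized by loess within arrays (limma 3.58.1, R 4.3.3), which assumes that most genes are equal at each intensity. The authors' deposited log2 table of the same arrays served as an alternative. How it was normalized stays unknown, and its columns ran from sample over reference with slopes of 0.978 to 1.17 against the scanner values and column medians of 0.026 to 0.060. Its columns for mutants 1 and 3 matched the other's scanner file better (r = 0.973 against 0.886, and 0.969 against 0.881), which leaves group means untouched.

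Non-control probes were kept when 3 or more of the 6 arrays had them well above background in Cy5, and a gene was its probe of highest mean sample intensity. Names were updated through RefSeq for 32817 probes (79.7%). All 6 arrays entered lmFit and eBayes, 3 per group, with Benjamini-Hochberg adjustment over all 20622 genes and a two-sided threshold of 0.05. The number of arrays limits the precision, and 3 against 3 could give no exact permutation p below 0.1. Named are members past the threshold, up to 4 per class of smallest p, the 3 highest and 3 lowest differences, testis genes, and up to 4 per list. The members and lists were chosen with earlier results of these data known. Probe places (coding, stop codon, 3′) were assigned by hand from sequence and transcript position. Replicate numbers were not used as pairs in the reported fit. Same-numbered deviations from group means correlated at 0, 0.02 and 0.13. Differently numbered ones were not compared, so these values cannot settle whether samples were paired. Alternatives covered background, normalization, filter, probes, slide, scan day, replicate block, array weights, near-identical arrays and each array left out.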

Additional observations from a re-analysis of the deposited data

How the results depend on the processing

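The number of histone genes that passed depended on the processing. Over 19 alternatives and 455 values of 24 named histone genes, 0 changed sign, 26 lost the call and 31 gained it. Other members did change sign: of the 34 genes, 23 had higher means in the reported fit, 24 with median centring, with the sample channel alone and without control 1, 25 without mutant 1 and 26 with array weights, which put 12 of 12 H2A genes higher in place of 9. The count was 2 in the reported fit, with no filter and with every probe tested. It was 1 (Hist1h1b) with probes well above background on all arrays. It was 0 with the processed signals, median centring, arrays scaled to one spread, the sample channel alone, the deposited table, slide as a random block and near-identical arrays averaged. It was 6 with scan day as a block and 27, 20 of them higher, with array weights, where 56.2% of all genes passed. With a replicate block it was 0, where 0.635% of all genes passed, and the median difference stayed at 0.35. Leaving out each array in turn gave counts of 0 to 6 and medians of 0.28 to 0.39. At an unadjusted p under 0.05, 10 to 27 members passed over all alternatives. All genes passing numbered 582 in the reported fit and 0 to 11546 over the alternatives. A count of members given without the share of all genes therefore does not set the histone genes apart. The members' median difference was 0.52 with median centring and otherwise within 0.23 to 0.39. Class medians ranged from 0.45 to 0.94 for H1, 0.16 to 0.52 for H2A, -0.66 to -0.46 for H2B, 0.03 to 0.31 for H3 and 0.47 to 1.21 for H4. The cause of these changes was not tested, except that fewer arrays leave fewer degrees of freedom. The dim signal of Hist1h2ac, whose fitted difference was 1.68 with the processed signals and 1.37 in the deposited table against 0.98, limits its value to a bound, which ran from 1.56 to 1.78 with each array left out.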
